A study of Mus musculus with 8 samples.

Results

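The 10 genes described here encode enzymes that make eicosanoids and 1 partner protein of such an enzyme. They are Pla2g4a, Alox5, Alox5ap, Ltc4s, Alox12, Alox15, Ptgs1, Ptgs2, Tbxas1 and Hpgds. The set was drawn up by name and function, and it was also selected on measured values, since the mutant and wild type signals of these arrays were already known. Their genotype differences are therefore given as a description, and counts of these genes from the fit over all features stand beside the share of all features with nothing read from them. All 10 genes were found, through 12 of the 55681 probes on the array, and they stand among 40249 features measured.

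The arrays compared CD31-bearing cells from 8 mouse embryos at E12.5 on a C57Bl/6J background, 1 embryo per array. Wild type (n = 4) and mutant (n = 4) embryos were littermates from 2 litters, from matings between carriers of the Gata2 +9.5 mutation, and each litter gave 2 embryos of each genotype. The mutants carried Gata2+9.5-/-, a mutation of an enhancer inside the Gata2 gene present in every cell of the embryo. Cells came from carcasses without liver and brain, were dissociated with collagenase and were held by magnetic beads with an antibody to CD31, also called PECAM-1, which endothelial cells, platelets and several other blood cells carry. Embryos 1 and 2 of each genotype came from litter 1 and embryos 3 and 4 from litter 2. The arrays of a litter also shared a slide, so litter and slide cannot be told apart.

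Eicosanoids are short-lived signalling lipids made from arachidonic acid, which cytosolic phospholipase A2 frees from membranes. Lipoxygenases turn it into hydroxy fatty acids and leukotrienes, and cyclooxygenases turn it into a precursor that terminal synthases convert to thromboxane, prostacyclin and the prostaglandins. Platelets are known for thromboxane and 12-lipoxygenase products, leukocytes and mast cells for leukotrienes, and endothelium for prostacyclin.

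Each value below is the log2 signal of a probe minus the 75th percentile of log2 signals on the same array, so 0 marks a signal equal to that percentile. Probes differ in brightness for the same RNA, so values are compared between embryos and never between genes. Of the spots on each array, 74.95% to 92.05% were well above background. Gata2 itself was 2.00, 1.66, 0.89 and 1.42 in wild type embryos 1 to 4 and -1.24, -0.15, -1.27 and -1.07 in the mutants, a difference of -2.42 with no overlap. All 11 endothelial markers were well above background on all arrays, and their summed signal ran from 320 to 1057 times the 75th percentile in wild types and from 393 to 962 times in mutants. Wild type 2, wild type 3 and mutant 4 had the highest scores on the first principal component, 72.0, 114 and 76.0 against -87.9 to 14.2. That component held 60.1% of the variance. The other 5 arrays were spread too, with mutant 3 at -40.6 and wild type 4 at 14.2. The 3 arrays are said below to stand apart by score only. Their shares of spots well above background were 85.76%, 92.05% and 91.87%, against 86.89% on wild type 4.

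Markers of blood cells differed between the groups in which the enzymes are compared. All 12 platelet and megakaryocyte markers were lower in mutants without overlap, and their summed signal was 56.4 to 113 times the 75th percentile in wild types and 12.0 to 22.4 times in mutants. Of 10 neutrophil markers 9 were lower, 4 of them without overlap, with sums of 11.1 to 17.4 and 2.56 to 3.93. Of 8 mast cell markers measured 7 were lower, 3 of them without overlap, and Ms4a2 gave no value. The sums of the 8 were 8.84 to 16.2 and 3.17 to 5.83. Kit was the brightest of the 8 on every mutant array and overlapped between genotypes (-0.34), so the mutant sums lean on it. The 3 without overlap, Cpa3, Hdc and Il1rl1, were 30.3-fold, 11.5-fold and 4.51-fold lower, with Cpa3 well above background on 3 of 4 mutant arrays. All 6 eosinophil markers were lower, 3 of them without overlap, with sums of 3.62 to 8.07 and 0.926 to 2.70. Epx and Ear2 were well above background on 1 of 4 mutant arrays. Siglecf, Il5ra and Ccr3 overlapped and were highest on wild type 2, wild type 3 and mutant 4, the arrays that stood apart on the first principal component. Macrophage markers overlapped between genotypes, with 9 of 10 measured lower, sums of 12.3 to 33.3 and 8.82 to 28.9, and no value for Timd4. Of all features, 47.6% were lower in mutants by any amount and 0.532% were lower without overlap. The part of these cell types in the enzyme differences was not tested, and in bulk samples fewer cells of a type and less RNA per cell cannot be told apart.

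**Figure D1:**
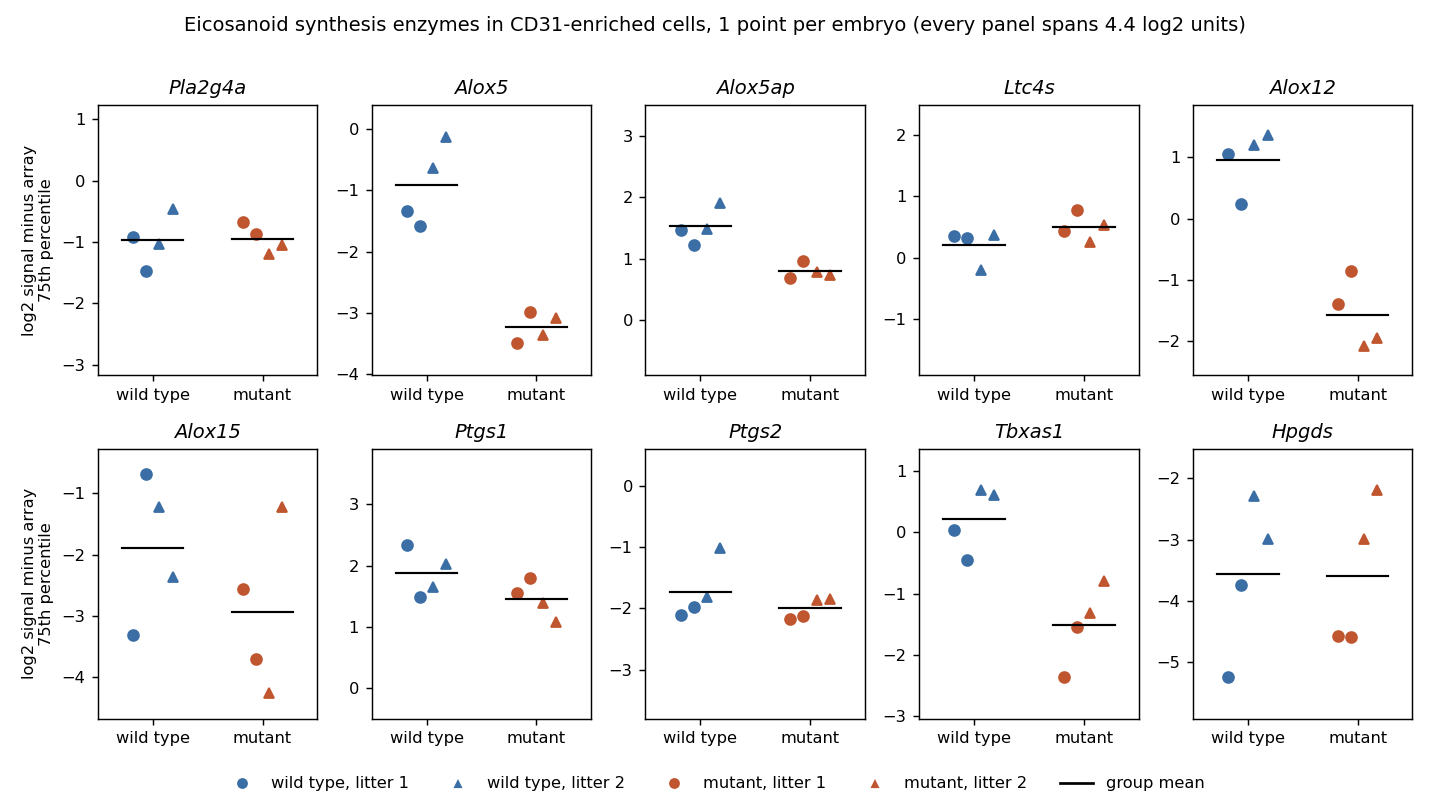
Log2 signal minus the 75th percentile of the array (y axis) for the 10 genes, with 1 point per embryo, circles for litter 1, triangles for litter 2 and a line at the mean of each genotype (n = 4). Mutant and wild type points are separate for Alox5, Alox5ap, Alox12 and Tbxas1 and intermingled for the other 6 genes.

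With the brightest probe standing for each gene, Alox12 differed most between genotypes among the lipoxygenases. It encodes arachidonate 12-lipoxygenase, the platelet-type enzyme that forms 12-hydroxy fatty acids. Its brighter probe (chr11:70055715-70055774, minus strand, mm9) read 1.05, 0.24, 1.21 and 1.37 in wild types and -1.39, -0.85, -2.07 and -1.94 in mutants. Every mutant lay below every wild type, and the closest pair, wild type 2 and mutant 2, came from litter 1. The means were 0.96 ± 0.50 (SD, n = 4) and -1.56 ± 0.56 (SD, n = 4), a difference of -2.53 ± 0.40 (SE) or 5.76-fold lower signal. Taken by litter, mutants differed by -1.76 in litter 1 and by -3.29 in litter 2. A test of the difference between litters, limma's genotype by litter interaction, gave -1.53, which had p under 0.05 before adjustment and a limma adjusted p of 1.00.

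A second Alox12 probe lies in another place of the transcript (chr11:70063629-70063688, minus strand, mm9). It read -1.83, -2.85, -1.44 and -1.27 in wild types and -3.76, -3.11, -4.64 and -3.88 in mutants. The groups again did not overlap, and the mean signal was 4.00-fold lower in mutants. Both probes thus gave the same order of the groups. With the mean of both probes the Alox12 difference was -2.26, close to the -2.31 of Alox5.

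Alox5 encodes 5-lipoxygenase, which starts leukotriene synthesis in myeloid cells and mast cells. It read -1.34, -1.58, -0.64 and -0.13 in wild types and -3.50, -2.98, -3.36 and -3.08 in mutants. The wild types spread more widely than the mutants, with the litter 2 wild types highest, and no mutant reached the lowest wild type. The means were -0.92 ± 0.66 (SD, n = 4) and -3.23 ± 0.24 (SD, n = 4), a difference of -2.31 ± 0.39 (SE) or 4.94-fold lower signal. It was -1.78 in litter 1 and -2.83 in litter 2, and the interaction of -1.05 had a limma adjusted p of 1.00.

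Alox5ap encodes FLAP, the membrane protein that presents arachidonic acid to 5-lipoxygenase. Its wild type values were 1.47, 1.23, 1.49 and 1.91, and its mutant values were 0.69, 0.97, 0.78 and 0.73. All mutants lay below all wild types, but over a much smaller distance than for Alox5. The difference was -0.73 ± 0.31 (SE), or 1.66-fold lower signal, with -0.52 in litter 1 and -0.95 in litter 2. With the median of the array in place of the 75th percentile, the difference was -0.47 and the groups overlapped.

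Ltc4s encodes leukotriene C4 synthase, which joins glutathione to leukotriene A4 and so opens the cysteinyl leukotriene branch. It read 0.35, 0.31, -0.20 and 0.37 in wild types and 0.44, 0.77, 0.26 and 0.53 in mutants. Mutants were slightly higher on average, by 0.29 ± 0.31 (SE), and the groups overlapped. Without wild type 3 the difference was 0.15, and without mutant 3 it was 0.37 with no overlap. The 5-lipoxygenase branch thus gave differences of -2.31 for Alox5, -0.73 for Alox5ap and 0.29 for Ltc4s.

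Alox15 encodes the mouse 12/15-lipoxygenase of macrophages and eosinophils. It read -3.31, -0.69, -1.22 and -2.36 in wild types and -2.57, -3.70, -4.26 and -1.22 in mutants. The highest values belonged to wild type 2, wild type 3 and mutant 4, the 3 arrays that stood apart on the first principal component. The difference was -1.04 ± 0.72 (SE), and without those 3 arrays it was -0.67, again with overlap. Single arrays moved it widely, to -0.60 without mutant 3 and to -1.61 without mutant 4. Alox12 and Alox15 lie on the same chromosome with their probes 95.4 kb apart (mm9), and 1 protein-coding gene, Alox12e, stands between them.

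The Alox12 and Alox15 probes are shown because the enzymes are related and signal could be shared between such transcripts. The Alox12 probe is the dimmer one, and the Alox15 probe joins sequence from a stretch of 225 bases (chr11:70159115-70159339, minus strand, mm9). Capitals mark a run of 5 bases that both hold. No shared run is longer, and another, TCTGG, is as long. Whether the brighter Alox12 probe, which gave the difference of -2.53, shares a run with the Alox15 probe was not examined. Sharing of signal was not tested.
Alox12 probe: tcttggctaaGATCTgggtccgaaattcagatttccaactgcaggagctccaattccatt
Alox15 probe: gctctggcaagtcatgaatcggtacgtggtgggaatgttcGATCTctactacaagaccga

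Pla2g4a encodes cytosolic phospholipase A2, the step before both branches. It read -0.91, -1.48, -1.03 and -0.46 in wild types and -0.68, -0.86, -1.19 and -1.05 in mutants. All 4 mutants lay within the wild type range, and the difference was 0.02 ± 0.34 (SE). Mutants were higher by 0.42 in litter 1 and lower in litter 2, where the difference was -0.38. The interaction of -0.80 had a limma adjusted p of 1.00.

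Of the cyclooxygenases, Ptgs1 encodes COX-1, the enzyme of platelets and most resting tissues. It read 2.34, 1.48, 1.66 and 2.03 in wild types and 1.56, 1.81, 1.40 and 1.08 in mutants. Mutant 1 and mutant 2 lay within the wild type range, and the difference was -0.42 ± 0.34 (SE), or -0.27 without wild type 1. Ptgs2 encodes COX-2, the inducible form. It read -2.10, -1.99, -1.81 and -1.03 in wild types and -2.17, -2.12, -1.87 and -1.85 in mutants. Wild type 4 was above all others and the remaining 7 values lay close together, for a difference of -0.27 ± 0.34 (SE) that was -0.04 without wild type 4. The Ptgs2 probe is printed on the array as 10 spots, whose log2 signals had an SD of 0.0753 to 0.147 within an array. Ptgs2 and Pla2g4a are neighbours on chromosome 1 with no protein-coding gene between them, and their probes lie 278 kb apart (mm9).

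Tbxas1 encodes thromboxane A synthase, the terminal enzyme of the thromboxane branch in platelets and macrophages. Its brighter probe read 0.04, -0.45, 0.69 and 0.61 in wild types and -2.36, -1.55, -1.31 and -0.80 in mutants. The groups did not overlap, and within each genotype the 2 embryos of litter 2 were above the 2 of litter 1. The means were 0.22 ± 0.53 (SD, n = 4) and -1.51 ± 0.65 (SD, n = 4). The difference was -1.73 ± 0.42 (SE, or 0.30 with litter in the model), a 3.32-fold lower signal. Litter 1 gave -1.75 and litter 2 gave -1.71. A second probe, designed on a cDNA at another position (chr6:38902132-38902191, plus strand, mm9), was not well above background on wild type 1, mutant 1 and mutant 2. Its groups overlapped with a difference of -0.46, and the mean of both probes gave -1.09 with overlap.

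Hpgds encodes the prostaglandin D synthase of mast cells, macrophages and megakaryocytes. It read -5.24, -3.75, -2.29 and -2.99 in wild types and -4.57, -4.58, -3.00 and -2.20 in mutants. The genotypes overlapped over most of their range, with a difference of -0.02 ± 0.70 (SE, or 0.39 with litter in the model). The values parted by litter instead. On wild type 1 and mutant 2 the probe was not well above background. The probe spans 3529 bases of the genome (chr6:65070081-65073609, minus strand, mm9) for its 60 bases, so it reads spliced RNA, and it is shown because the litter result rests on it alone.
Hpgds probe: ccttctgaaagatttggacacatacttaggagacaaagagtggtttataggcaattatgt

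**Figure D2:**
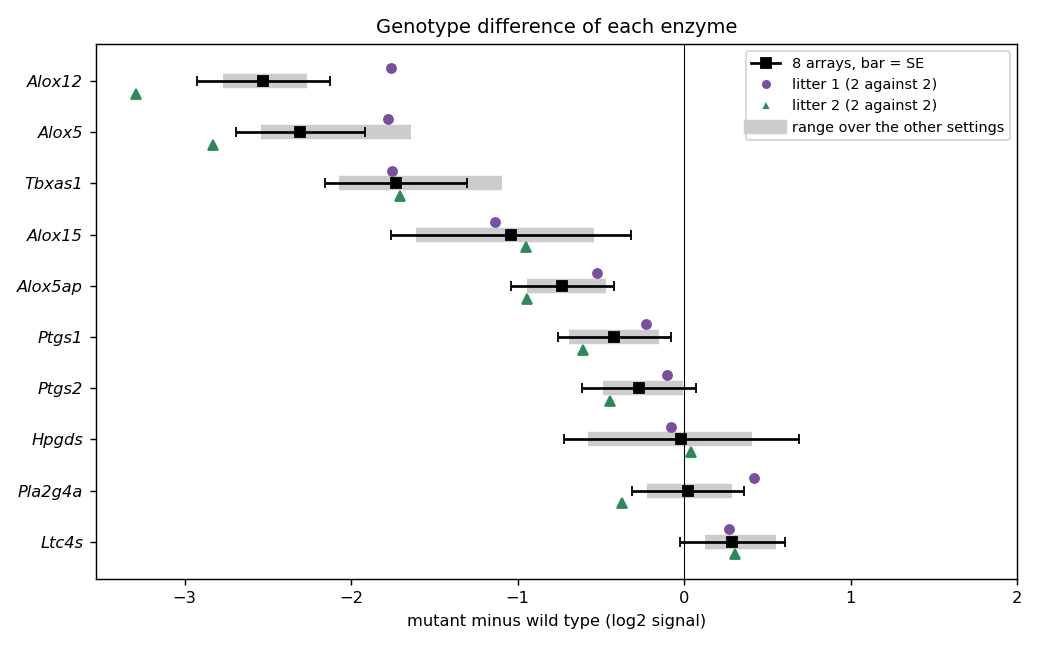
Mutant minus wild type difference of log2 signal (x axis) for each gene, as a square with its SE over 8 arrays, as a circle for litter 1 and a triangle for litter 2 (2 embryos against 2 each), with a grey band for the range over the other settings. Alox12 at -2.53, Alox5 at -2.31 and Tbxas1 at -1.73 lie farthest from 0, and the bands of Hpgds and Pla2g4a cross 0.

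Of the 10 genes, 8 were lower in mutants by any amount, against 47.6% of all features, and 4 were lower without overlap (Alox12, Alox5, Tbxas1 and Alox5ap), against 0.532% of all features. With limma and Benjamini-Hochberg adjustment over all features 0 of 10 passed an adjusted p of 0.05 in the lower direction, against 0.0447% of all features, and 4 were lower with p under 0.05 before adjustment, against 2.67% of all features (3.05% in either direction). The genes were picked with this contrast known, so nothing is read from these shares. The 3 arrays that stood apart (wild type 2, wild type 3 and mutant 4) were also left out. The differences were then -2.64 for Alox12, -2.54 for Alox5, -2.07 for Tbxas1 and -0.88 for Alox5ap, again without overlap. Ptgs1 at -0.60 did not overlap either. Only wild types 1 and 4 and mutants 1, 2 and 3 remain there, so groups part more easily. The share of all features without overlap was not counted in this setting, and nothing is read from it. The median difference of the 10 genes was -0.58, and that of all features was 0.05.

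The upstream sequences of the 3 genes with the largest differences are shown because these genes were lower together. They are the 250 bases before the annotated start, from RefSeq on GRCm38.p6, for Alox12 (chr11:70255371-70255620, minus strand), Alox5 (chr6:116461179-116461428, minus strand) and Tbxas1 (chr6:38918736-38918985, plus strand). Capitals mark matches on either strand to 6-letter words. The GATA word was AGATAA with T allowed as the opening base and G as the closing base, the GC box was GGGCGG, and the TATA word was TATAAA.
Alox12 promoter: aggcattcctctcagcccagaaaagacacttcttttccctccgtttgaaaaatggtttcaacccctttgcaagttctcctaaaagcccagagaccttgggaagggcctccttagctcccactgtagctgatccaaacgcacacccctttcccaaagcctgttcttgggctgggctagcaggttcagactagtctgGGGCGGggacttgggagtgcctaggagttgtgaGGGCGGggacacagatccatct
Alox5 promoter: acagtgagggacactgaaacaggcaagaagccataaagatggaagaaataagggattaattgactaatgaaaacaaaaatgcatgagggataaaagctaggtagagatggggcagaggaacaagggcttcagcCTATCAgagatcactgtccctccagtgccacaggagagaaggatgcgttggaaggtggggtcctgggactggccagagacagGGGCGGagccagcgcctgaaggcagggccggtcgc
Tbxas1 promoter: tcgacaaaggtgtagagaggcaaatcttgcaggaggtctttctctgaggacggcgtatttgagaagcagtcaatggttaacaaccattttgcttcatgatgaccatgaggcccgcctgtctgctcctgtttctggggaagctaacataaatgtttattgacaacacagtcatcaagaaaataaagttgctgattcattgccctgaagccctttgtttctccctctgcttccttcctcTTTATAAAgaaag

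The Alox12 sequence held 2 GC boxes, the Alox5 sequence 1 GC box and 1 GATA word, and the Tbxas1 sequence 2 overlapping TATAAA matches, 1 on each strand. These motifs are common, since 26.5% of 32851 promoters of this length held a GATA word, 32.7% a GC box and 12.4% TATAAA. Of the 10 genes, 8 had an entry in the promoter table, and Alox15 and Alox5ap had none. Pla2g4a, with a genotype difference of only 0.02, held 2 GATA words and 1 TATAAA match before its start at chr1:149922440-149922689. Its other entry, chr1:149961291-149961540, held no match. Ptgs2 held 1 GC box, and Ptgs1, Hpgds and Ltc4s held no match. The GATA word was thus not particular to genes lower in mutants. A match is a description of letters and not a site.

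The remaining genes of eicosanoid release, synthesis, breakdown and response were described through a list of 38, of which 35 were measured. With limma and adjustment over all features 0 of 35 passed in the lower and 0 in the higher direction, against 0.0447% and 0% of all features. Before adjustment 2 of 35 had p under 0.05, against 3.05% of all features. By any amount 10 were lower, against 47.6% of all features, and 25 were higher. The median difference was 0.24, and that of all features was 0.05. Among the synthases the differences were 0.26 ± 0.33 (SE) for Ptgis, which makes prostacyclin, and 0.32 ± 0.44 (SE) for Ptges, which makes prostaglandin E2. Lta4h, which makes leukotriene B4, gave 0.36 ± 0.42 (SE), and Ptgds, the lipocalin-type prostaglandin D synthase, gave -0.49 ± 0.37 (SE). Genotypes overlapped for all 4 of these genes.

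Receptors held the 2 genes of the list with p under 0.05. Ltb4r1, the high-affinity leukotriene B4 receptor of leukocytes, averaged 0.11 ± 0.43 (SD, n = 4) in wild types and -1.25 ± 0.47 (SD, n = 4) in mutants, a difference of -1.36 ± 0.37 (SE) with a limma adjusted p of 0.717. Ptgir, the prostacyclin receptor of platelets and smooth muscle, averaged -3.13 ± 0.41 (SD, n = 4) and -4.25 ± 0.39 (SD, n = 4), a difference of -1.12 ± 0.36 (SE) with the same adjusted p of 0.717. Neither overlapped between genotypes, against 0.532% of all features. Cysltr1, a cysteinyl leukotriene receptor, was the 1 gene higher without overlap, by 0.73 ± 0.34 (SE), against 0.507% of all features. Tbxa2r, the thromboxane receptor, gave 0.33 ± 0.34 (SE) and Ptger4, a prostaglandin E2 receptor, 0.46 ± 0.31 (SE), both with overlap. The largest receptor differences with overlap, picked out after their values were seen, were -1.54 ± 0.70 (SE) for Ptgdr, a prostaglandin D2 receptor well above background on 1 of 4 mutant arrays, and -1.26 ± 0.58 (SE) for Ptgdr2, the other receptor of that ligand. Ptgdr and Ptgdr2 were both highest on wild type 2, wild type 3 and mutant 4, the arrays that stood apart on the first principal component.

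**Figure D3:**
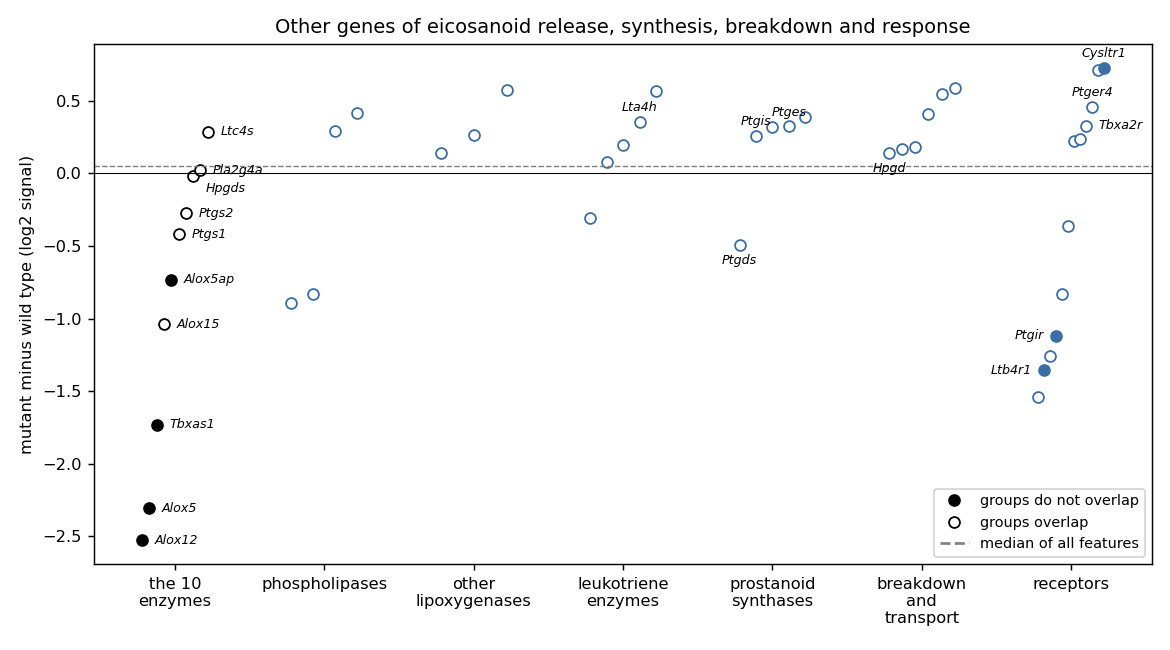
Mutant minus wild type difference of log2 signal (y axis) for the 10 genes and for 35 further genes by role, filled where the 4 mutant and 4 wild type arrays do not overlap and open where they do, with a dashed line at the median of all features. The 10 genes reach -2.53, while the further genes lie between -1.54 and 0.73.

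The litters, which did not enter the choice of the genes, gave 1 call among the 10. Hpgds averaged -4.54 ± 0.61 (SD, n = 4) in litter 1 and -2.62 ± 0.44 (SD, n = 4) in litter 2, a rise of 1.92 ± 0.39 (SE) with a limma adjusted p of 0.0296. All 4 embryos of litter 2 were above all 4 of litter 1, and the rise was 1.85 in wild types and 1.98 in mutants. Because 2 of the 4 litter 1 signals (wild type 1 and mutant 2) were not well above background, its size is not exact. Of all features, 4% were higher in litter 2 and 0.894% lower at this threshold. Leaving out any single embryo except wild type 2 ended this call, with limma adjusted p from 0.0582 without wild type 4 to 0.107 without mutant 2. Scaling by the median of the array ended it too, with 1.45 and a limma adjusted p of 0.0532. So did quantile scaling, with a rise of only 1.25 and a limma adjusted p of 0.0514, and normexp background correction with quantile scaling, with 0.67 and a limma adjusted p of 0.0896. Without the 3 arrays that stood apart the rise was 1.86 with a limma adjusted p of 0.0410.

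Tbxas1 was also higher in litter 2, by 0.88 ± 0.30 (SE), with a limma adjusted p of 0.116. Over all features the litter contrast had a median of 0.32 and an upper quartile of 0.79. With the median of the array in place of the 75th percentile, the Tbxas1 rise was 0.41 with a limma adjusted p of 0.582. With the 75th percentile, 2 of the 10 genes had p under 0.05 before adjustment, against 25.8% of all features. The summed macrophage markers were 8.82 to 14.8 times the 75th percentile in litter 1 and 24.2 to 33.3 times in litter 2, and 6 of 10 passed the litter threshold. Other cell types parted by litter too. The summed erythroid markers were 296 to 607 times the 75th percentile in litter 1 and 728 to 1338 times in litter 2, with 2 of 7 past the litter threshold. The brightest of them, Hba-a1 and Hbb-y, were saturated on 4 arrays and 1 array, so these sums are not exact levels. The summed endothelial markers were 614 to 1057 and 320 to 582 times, with 3 of 11 past the litter threshold. The share of spots well above background was 74.95% to 85.8% in litter 1 and 83.0% to 92.05% in litter 2. The part of these in the Hpgds difference was not tested.

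**Figure D4:**
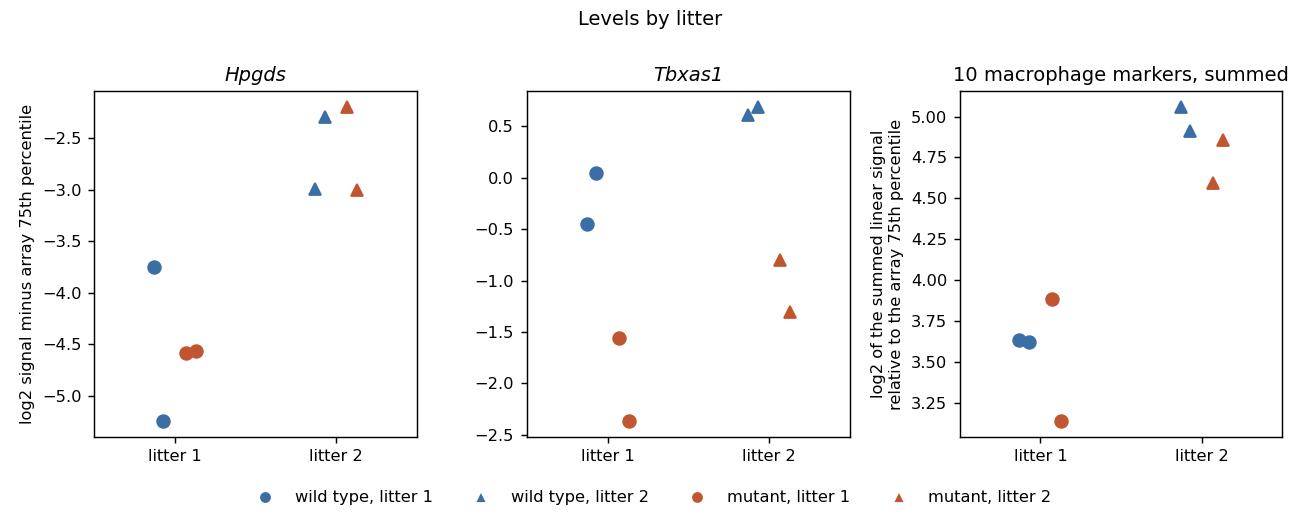
Log2 signal minus the 75th percentile of the array for Hpgds and Tbxas1, and log2 of the summed signal of 10 macrophage markers relative to the 75th percentile (y axes), for the 4 embryos of each litter, coloured by genotype. Hpgds and the macrophage sum part by litter in both genotypes, while Tbxas1 parts by genotype and, within each genotype, by litter.

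Of the 35 further pathway genes 3 passed the litter threshold as higher in litter 2, against 4% of all features, and 1 as lower, against 0.894%. Higher in litter 2 were Pla2g5, a secreted phospholipase, by 1.60 ± 0.36 (SE) with a limma adjusted p of 0.0403, Aloxe3, an epidermal lipoxygenase, by 1.74, and Alox12e by 2.27. Alox12e was well above background on only 2 of 4 arrays of each genotype and Aloxe3 on 3 of 4, so these values rest partly on signals near background and are not exact differences. Hpgd, which degrades prostaglandins, was lower in litter 2, with a difference of -1.33. For the interaction of genotype and litter 0 of the 10 genes passed the adjusted threshold, against 0% of all features, and Alox12 alone had p under 0.05 before adjustment, against 1.22%.

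The genes with the most similar pattern over the 8 arrays were sought among 21482 genes by Pearson's r, as a description over arrays that share genotype, litter and slide. Alox12 lay closest to Tmem40 (r = 0.990), Il1rl1 (r = 0.989), a receptor used as a mast cell marker, and Gp9 (r = 0.986), a platelet glycoprotein. Alox5 lay closest to Plac8 (r = 0.989), Gp5 (r = 0.985) and Cd69 (r = 0.984). Plac8 was also the closest to Alox5ap (r = 0.980). Tbxas1 lay closest to Csf2rb2 (r = 0.993), Gata1 (r = 0.991), a transcription factor of erythroid cells and megakaryocytes, and Hp (r = 0.990). For these 3 enzymes and Alox5ap all of the closest genes were lower in mutants, from -3.49 for Gp9 to -1.13 for Smim3. Each r spans both genotypes, so genes with a like genotype difference rank as closest and nothing is read from this. With the mean of each genotype removed, r ran from 0.875 for Alox12 with Gp9 to 0.975 for Tbxas1 with Csf2rb2.

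The 6 genes whose groups overlapped had other neighbours. Alox15 lay closest to Gpr142 (r = 0.987), Adra1d (r = 0.987) and Taf7l2 (r = 0.983), and Hpgds to Mapk4 (r = 0.991), Tas2r121 (r = 0.990) and Zpld1 (r = 0.987). Pla2g4a lay closest to Mtx3 (r = 0.982), Ptgs1 to Sec11c (r = 0.982), Ltc4s to LOC634012 (r = 0.965) and Ptgs2 to Hbb-bs (r = 0.924). Among the 10 genes themselves, Alox5, Alox12 and Alox5ap ran most alike, with r of 0.974 between Alox5 and Alox5ap and 0.953 between Alox5 and Alox12. Tbxas1 correlated with Alox5 at 0.932 and with Alox12 at 0.825, while Hpgds and Alox12 had an r of -0.10. These values also span both genotypes, so shared genotype differences enter them and nothing is read from them.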

How the data were processed

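The authors deposited 1 scanner file per embryo, with linear spot intensity from Agilent Feature Extraction 10.7.3.1 (1 colour, mm9), per the file headers. The authors' deposited table of log2 values, which per the submitters' processing notes came from limma, served as an alternative. RNA input was 0.1 ug, per the labels' protocols. Log2 of the processed intensity minus the array's 75th percentile was taken, outlier spots were removed and repeat spots averaged. A probe was kept with 4 of 8 arrays well above background and 3 values per group, and the brightest kept probe stood for a gene. Probes were named through RefSeq accession (26863), symbol (3752), older symbol (551) or the file (2100), and 22415 stayed unnamed. The probes named COX1 and COX2 are mitochondrial and were not used. limma 3.58.1 in R 4.3.3 (lmFit, eBayes, two-sided) was fitted over 40249 features with Benjamini-Hochberg adjustment. Genotype was fitted alone, and litter with genotype in the model. On simulated data with 39547 features, 0 of 67, 18 of 67 and 37 of 66 genotype differences of 1, 2 and 3 log2 units were recovered, and 0 of 67, 8 of 67 and 27 of 66 litter differences. Depth has no equivalent here, and the number of arrays limits the precision. The members, lists and the naming rule (all 10 genes, fixed pathway genes, pathway genes past the threshold and the 3 features of most similar pattern) were chosen with earlier results of these data known. The labels tie sample numbers to litters and not to pairs of embryos. Deviations of same-numbered arrays correlated at -0.16 to 0.62 over 4 pairs, with a median of -0.06. Wild type and mutant arrays of a litter correlated at -0.16 to 0.74 over 8 pairs, with a median of 0.26. So few pairs with such similar ranges cannot settle whether numbers pair the arrays. The comparison of protein sequences was not run here.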

Additional observations from a re-analysis of the deposited data

Results flagged for a closer look

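Pla2g4a moved in opposite directions in the litters, 0.42 in litter 1 and -0.38 in litter 2, a difference of -0.80. The limma interaction had an adjusted p of 1.00. Ltc4s in wild type 3, at -0.20, lay far below the other 3 wild types, with a gap of 0.895 of the range of the group, above Dixon's 95% critical value. Of 20 groups of 4 arrays screened this was the 1 sample found, and chance flags about 1 in 20.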

How the results depend on the processing

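Under 19 alternatives Alox12, Alox5 and Tbxas1 kept a lower mutant mean, from -2.77 to -2.26, from -2.54 to -1.64 and from -2.07 to -1.09. The count of members past the adjusted threshold, 0, became 2 among probes well above background on all 8 arrays, 1 with a floor on dim signals and 1 with the authors' table, where 27 of 31048, 30 of 40249 and 52 of 36369 features passed in either direction. The genes were chosen on this contrast, so nothing is read from these counts. With the authors' table the fit gave every member measured the same SE, 0.55. The Alox12 difference there, -2.26, equalled that with the median of the array. Its limma adjusted p was 0.0302 with the authors' table and 0.355 with the median. Members lower without overlap numbered 3 to 5 against 4, but settings that leave out arrays let groups part more easily. The share of all features without overlap was not counted under the alternatives. The litter count, 1 for Hpgds, became 0 with the median of the array, both quantile scalings, the filter on all 8 arrays (where Hpgds was not measured) and the authors' table, and ran from 0 to 1 when single arrays were left out. The Hpgds rise itself ran from 0.67 to 2.23 over 16 alternatives. The Hpgds genotype difference changed sign in 9 of 18 alternatives and that of Pla2g4a in 4 of 19. With the median of the array the median of all features moved from 0.05 to 0.32, and Ltc4s was 0.55 higher in mutants. The labels do not pair the arrays by sample number. With the sample number or the litter as a replicate block 0 members passed, as without it, and the features past the threshold fell from 18 to 0. Of simulated genotype differences of 1, 2 and 3 log2 units, 0 of 67, 18 of 67 and 37 of 66 were recovered.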
